A study of Arabidopsis thaliana with 5 samples.

Results

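The class III homeodomain-leucine zipper (HD-ZIP III) genes of Arabidopsis thaliana and 4 genes of the microRNA families that target them were examined for binding of the transcription factors BLUEJAY (BLJ) and JACKDAW (JKD). The 9 genes were chosen by locus: PHABULOSA (PHB, AT2G34710), PHAVOLUTA (PHV, AT1G30490), REVOLUTA (REV, AT5G60690), ATHB8 (AT4G32880) and ATHB15 (AT1G52150, also called CORONA), with MIR165A (AT1G01183), MIR165B (AT4G00885), MIR166A (AT2G46685) and MIR166B (AT3G61897). They are 9 of the 37899 genes of the gene table on the nuclear chromosomes, of which 27444 code for protein and 326 are miRNA genes. All bound regions within 3000 bp of a gene were taken, counting a region as soon as 1 bp of it reached that window. This gave 16 of 24229 BLJ regions and 15 of 21985 JKD regions.

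The chromatin immunoprecipitation (ChIP-seq) study used whole roots of Columbia plants. There were 2 libraries of plants with BLJ fused to yellow fluorescent protein, made in the ground tissue per the labels, and 2 libraries of plants with JKD fused likewise, made in the ground tissue and the quiescent centre (QC). The control was 1 library of wild-type plants without a fusion, taken through the same antibody against GFP. No promoter, plant age or state of the plants' own BLJ and JKD genes is given in the sources used here. One table of regions was used per factor. It combines the factor's replicates, and no control table was analysed here. Each region carries a density value for each of its 2 replicates, without saying which is which, and an irreproducible discovery rate (IDR), the authors' measure of how well the replicates reproduce a region, in which a low value stands for better reproducibility. Over all BLJ regions the median density was 1.60 for the first-listed value and 1.38 for the second-listed value, with a median IDR of 0.157. Over all JKD regions these medians were 1.09, 1.49 and 0.141. Density was compared only within a list, as a percentile of the mean log2 of both values in which 100 is the densest. Read depth is unknown. With 1 list per factor there is no spread between replicates for a count of genes, so no test is given below.

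HD-ZIP III proteins are transcription factors that set the upper side of leaves and, in roots, pattern the vascular cylinder and its xylem. Their transcripts carry a site paired by the microRNAs miR165 and miR166, which direct cleavage of the transcript. In the root, SHORT-ROOT and SCARECROW, the partners of BLJ and JKD in the ground tissue, switch on MIR165A and MIR166B in the endodermis, and the microRNA moves inward and clears HD-ZIP III transcripts from the outer stele. A high dose of these proteins at the centre goes with metaxylem and a lower dose with protoxylem.

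Regions of JKD lay within 3000 bp of all 5 HD-ZIP III genes and regions of BLJ within 3000 bp of 4, all but ATHB15. Such regions are common in these lists: 89.9% of all protein-coding genes lay that near to a BLJ region and 87.6% to a JKD region. Among the 1095 protein-coding genes of 4500 to 5500 bp, the length class of the HD-ZIP III genes, the shares were 94.6% and 92.1%, and 90.1% had regions of both, as did 4 of the 5. Over all protein-coding genes the share with both was 84.2%. The presence of a region at 4 or 5 of 5 genes is therefore near the background. Regions overlapped the gene itself at 4 of 5 for BLJ (PHB, PHV, REV and ATHB8) and at 3 of 5 for JKD (PHV, REV and ATHB8), where 85.6% and 78.4% of the length class were overlapped. Regions of both overlapped PHV, REV and ATHB8, against 73.9% of the length class. What differed among the 5 genes was how many regions they had, where these lay and how dense they were. The gene table gives no strand, so ends of genes are called here by coordinate and not as 5′ or 3′.

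**Figure D1:**
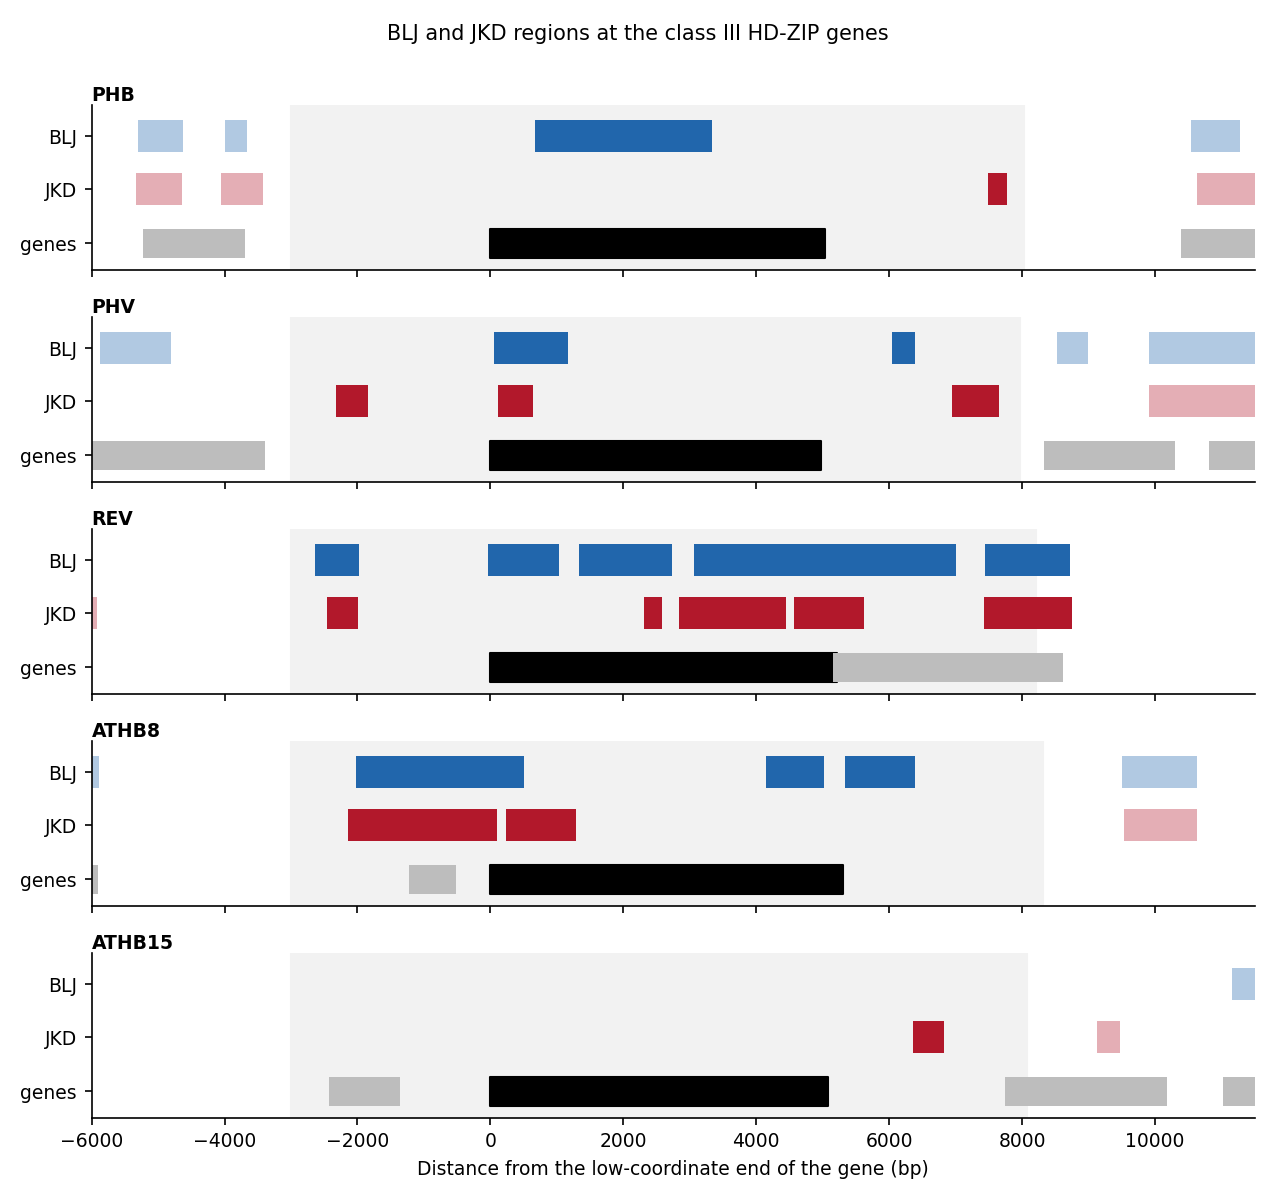
Map of BLJ regions (blue) and JKD regions (red) at the 5 HD-ZIP III genes (black), with neighbouring protein-coding genes in grey, against distance in bp from the low-coordinate end of each gene. The shaded window is the gene with 3000 bp on either side, and regions outside it are pale. REV has 5 regions of each factor in its window, while ATHB15 has 1 JKD region and no BLJ region.

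REV, which promotes vascular and meristem development, had the most regions, 5 of each factor. At least 5 regions of both factors were found at 1.89% of protein-coding genes and at 5.66% of the length class. BLJ regions covered 69.9% of REV with its flanks and JKD regions 37.3%. A BLJ cover at or above that of REV was found at 4.57% of the length class, and a JKD cover at or above it at 26.1%. The densest regions at REV lay beside the gene and not in it. On chromosome 5, a BLJ region (24394340 to 24395000) ended 1981 bp before the low-coordinate end of the gene, with densities of 1.96 and 1.91 and a percentile of 96.1. A JKD region (24394526 to 24394981) lay wholly inside it, with densities of 1.35 and 1.59, a percentile of 88.8 and an IDR of 0.0234, the lowest among the JKD regions of the 9 genes. Both values of both regions were above the median of their lists.

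Within the REV gene the regions had low or middle densities, and their widths ran from 279 to 3938 bp. Of the 3 BLJ regions there, the widest (24400043 to 24403980) was also the widest of all 31 regions described here, with densities of 1.49 and 1.45 and a percentile of 43.6. The other 2 had percentiles of 11.4 and 41.4. The 3 JKD regions in the gene had percentiles of 0.509, 25.9 and 65.7. That of 0.509 (24399287 to 24399565, densities 0.982 and 1.24) had the lowest percentile of the 31. That of 25.9 had an IDR of 0.335, where the highest in the whole JKD list was 0.339. All 5 JKD regions at REV shared bases with a BLJ region, and 4 of the 5 BLJ regions shared bases with a JKD region. The exception was the BLJ region over the low-coordinate end of the gene (24396944 to 24398009). The annotation of AT5G60700 overlaps the high-coordinate end of REV and continues beyond it, so the regions on that side cannot be assigned to either gene.

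ATHB8, a gene of the procambium and early xylem, had 3 BLJ and 2 JKD regions, with 39.4% and 29.2% of the gene and its flanks covered. At its low-coordinate end on chromosome 4, a BLJ region (15861314 to 15863848, densities 1.55 and 1.34, percentile 37.0) and a JKD region (15861202 to 15863444, densities 1.12 and 1.67, percentile 74.6) shared 2131 bp. These 2 regions also covered the neighbouring gene AT4G32870 and reached only 510 bp and 106 bp into ATHB8. A second JKD region (15863569 to 15864625, densities 1.07 and 1.51) lay inside the gene. The denser BLJ regions were at the other end, where JKD had none. One lay inside the gene (15867487 to 15868361, densities 1.92 and 1.42, percentile 79.2). The other began 30 bp beyond it (15868680 to 15869727, densities 2.18 and 1.28, percentile 81.4). The first-listed value of this last region, at percentile 96.3, was the highest among the 16 BLJ regions, while its second-listed value was at percentile 29.7, so its rank rests on 1 of 2 replicates.

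ATHB15, the closest relative of ATHB8, stood at the other extreme. It had no BLJ region within 3000 bp, and the nearest one was 6076 bp away, beyond its high-coordinate end. Only a short JKD region of 460 bp lay in its window (chromosome 1, 19416045 to 19416504), 1281 bp beyond the same end, with densities of 1.15 and 1.30, a percentile of 29.4 and an IDR of 0.225. The percentile of its first-listed value was 69.5 and that of the second-listed value 10.7. JKD regions covered 4.15% of ATHB15 and its flanks. In the length class 2.01% of genes had a JKD region and no BLJ region within 3000 bp, and 3.38% had neither.

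PHB and PHV, sister genes whose gain-of-function alleles turn leaves adaxial, were covered less than REV and ATHB8. BLJ regions covered 24.1% of PHB and 13.3% of PHV with their flanks, and JKD regions 2.58% and 15.6%. All of these were below the medians of the length class, 32.4% for BLJ and 24.0% for JKD. The covers of REV and ATHB8 were above those medians for both factors. At PHB on chromosome 2, a BLJ region of 2662 bp (14639997 to 14642658) lay wholly inside the gene and spanned 52.9% of it. Its densities were 1.96 and 1.29, at percentiles of 90.1 and 31.2 of the 2 values, and its IDR of 0.298 was the highest among the BLJ regions of the 9 genes. The highest IDR in the whole BLJ list was 0.300, so this region was near the limit of the list. The only JKD region at PHB was 285 bp long (14646810 to 14647094) and began 2455 bp beyond the high-coordinate end, with densities of 1.04 and 1.42 and a percentile of 25.8. It shared no base with a BLJ region.

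At PHV on chromosome 1, regions of both factors lay just inside the low-coordinate end of the gene. The BLJ region (10796174 to 10797290) had densities of 1.70 and 1.39, a percentile of 59.8 and an IDR of 0.0705, the lowest among the BLJ regions of the 9 genes. The JKD region (10796239 to 10796768) lay wholly inside it, with densities of 1.07 and 1.45 and a percentile of 37.6. PHV also had regions of 1 factor beside the gene. The densest was a JKD region (10803070 to 10803771, densities 1.20 and 1.67, percentile 83.8, IDR 0.0423) that began 1977 bp beyond the high-coordinate end and touched AT1G06343, a long non-coding RNA gene. A BLJ region lay 1072 bp beyond that end at percentile 20.8, and a further JKD region lay 1845 bp before the low-coordinate end at percentile 27.1.

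Of the 4 microRNA genes, MIR165A and MIR166A had regions of both factors within 3000 bp, and MIR165B and MIR166B had none of either. Among all 326 miRNA genes 68.1% lay that near to a BLJ region and 63.5% to a JKD region, 58.3% had both and 26.7% had neither, so 2 of 4 is not far from the background. Hairpins in the gene table are 111 to 182 bp long, which makes their windows shorter than those of the HD-ZIP III genes. Reads were 50 bp long per the labels, and how reads that fit several copies of the family were placed is not given in the sources used here.

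**Figure D2:**
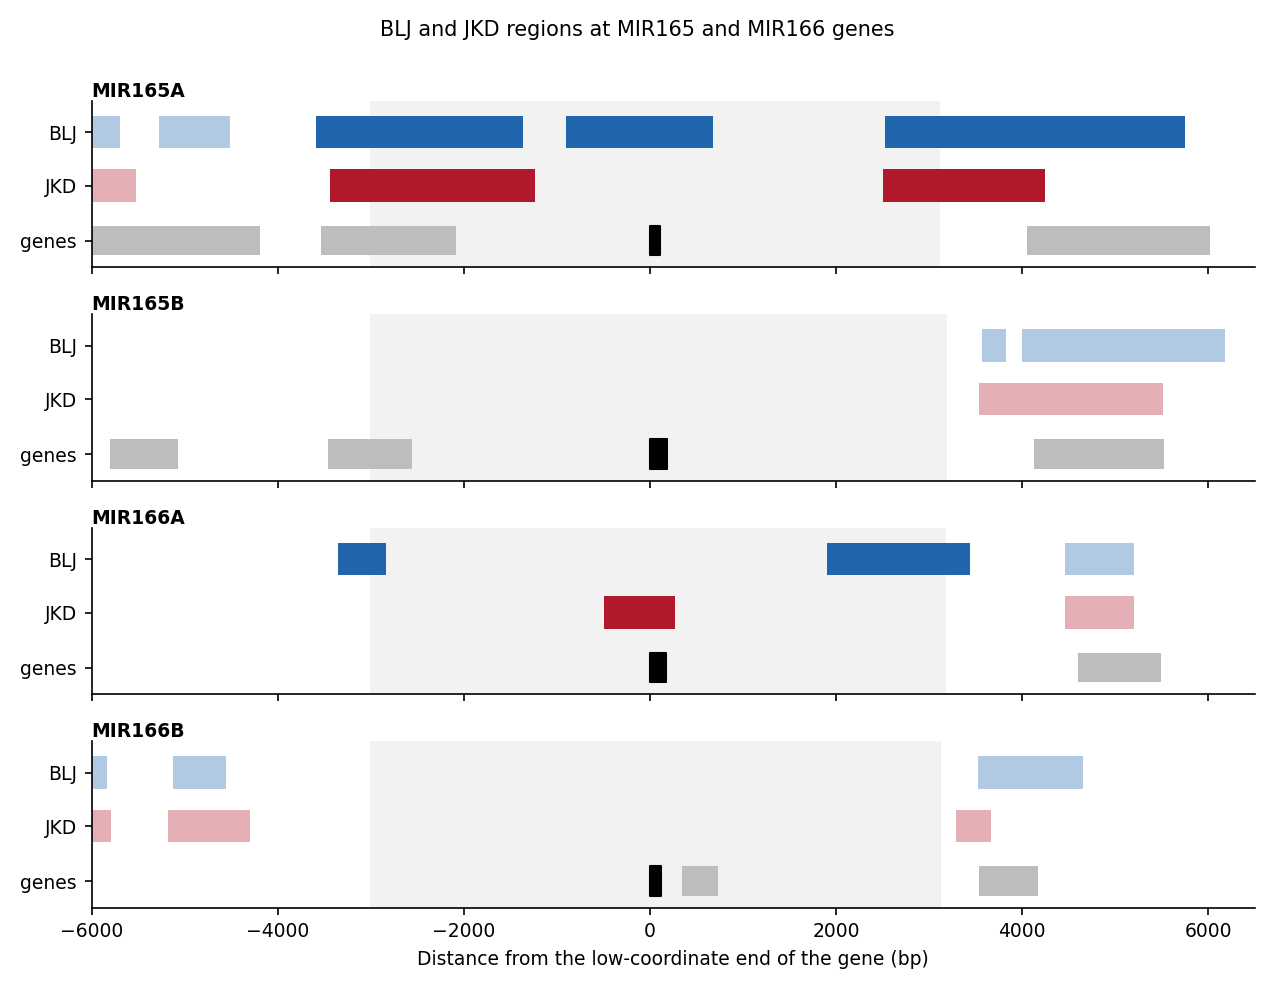
Map of BLJ regions (blue) and JKD regions (red) at the 4 microRNA genes (black), with neighbouring protein-coding genes in grey, against distance in bp from the low-coordinate end of each hairpin. The shaded window is the hairpin with 3000 bp on either side, and regions outside it are pale. The windows of MIR165B and MIR166B are empty, with pale regions 3166 to 3402 bp from the hairpins.

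MIR165A, on chromosome 1, was the microRNA gene with the most cover, 62.1% of its window by BLJ and 38.7% by JKD. The medians over all miRNA genes were 15.6% and 10.2%. The hairpin itself lay inside a BLJ region of 1581 bp (78020 to 79600) with densities of 1.87 and 1.27, a percentile of 60.6 and an IDR of 0.230. The first-listed value of this region was at percentile 84.9 and its second-listed value at 28.7. No JKD region overlapped the hairpin. On the low-coordinate side, a BLJ region (75336 to 77557) and a JKD region (75491 to 77686) shared 2067 bp. The BLJ region had densities of 1.85 and 1.94, a percentile of 95.2 and an IDR of 0.0895. The JKD region had densities of 1.21 and 1.70, a percentile of 86.0 and an IDR of 0.0372. This pair overlapped AT1G01180, a protein-coding gene, and AT1G08765, an RNA gene whose annotation also spans the hairpin. It ended 1370 bp and 1241 bp from MIR165A. On the other side, a further pair of regions reached into CYP78A8 (AT1G01190), a cytochrome P450 gene, at percentiles of 71.6 for BLJ and 70.5 for JKD.

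MIR166A, on chromosome 2, had its hairpin inside a JKD region and not a BLJ region. The JKD region (19175618 to 19176375) was 758 bp long, with densities of 1.01 and 1.62, a percentile of 50.3 and an IDR of 0.222. Its first-listed value was at percentile 13.0 and its second-listed value at 72.9. The 2 BLJ regions at MIR166A lay 2840 bp before and 1738 bp beyond the hairpin, at percentiles of 42.4 and 27.9, and neither shared a base with the JKD region. Overlap of the hairpin by BLJ alone, as at MIR165A, and by JKD alone, as at MIR166A, were each found at 7.36% of miRNA genes.

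MIR165B and MIR166B lay just outside the limit. The nearest regions of MIR165B on chromosome 4 were 3392 bp (BLJ, 373404 to 373656, densities 1.48 and 1.24) and 3359 bp away (JKD, 373371 to 375341, densities 1.18 and 1.41), and the JKD region overlapped AT4G00890 and AT4G00889. Those of MIR166B on chromosome 3 were 3402 bp (BLJ, 22925727 to 22926862, densities 1.20 and 1.21) and 3166 bp away (JKD, 22925491 to 22925869, densities 1.01 and 1.29), both over AT3G61900. The last 2 were among the weakest of their lists, at percentiles of 0.549 and 4.55. On the other side of MIR166B, a JKD region 4300 bp away (22917031 to 22917906, densities 1.29 and 1.78, IDR 0.0105) had a percentile of 92.6. A BLJ region there (22917076 to 22917654, densities 1.58 and 1.37) lay 4552 bp away at percentile 43.8. Just inside the limit was the BLJ region 2840 bp from MIR166A, with densities of 1.47 and 1.45.

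**Figure D3:**
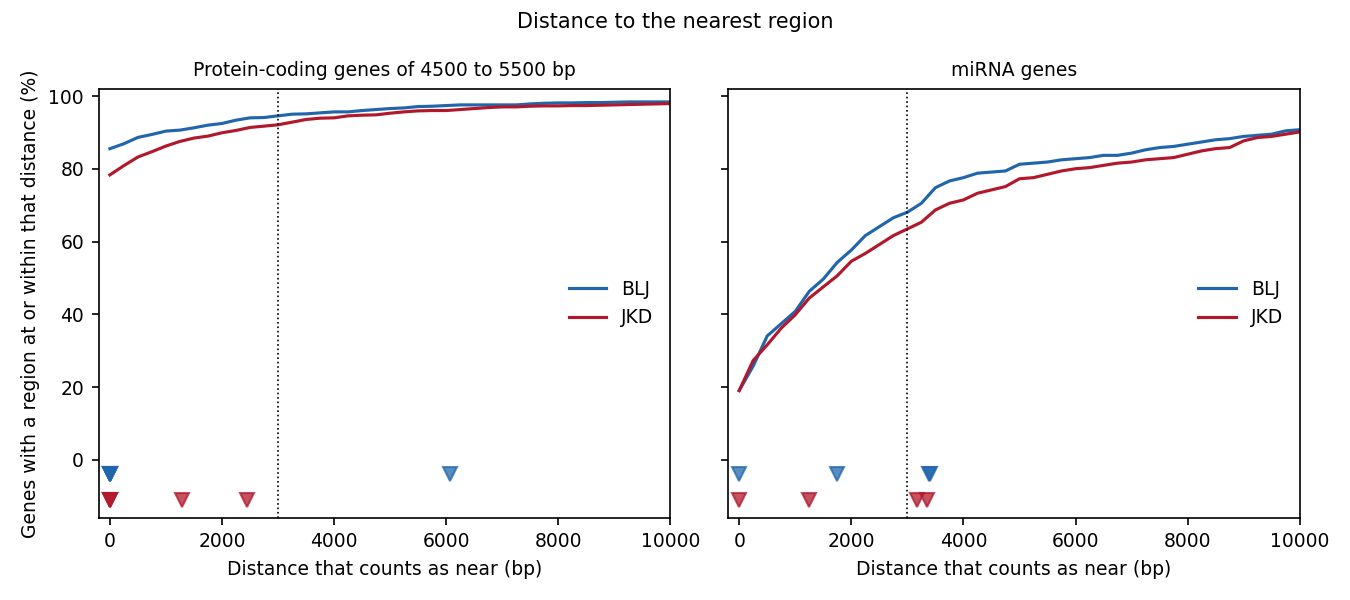
Share of genes (%) with a BLJ region (blue) or a JKD region (red) at or within the distance on the x axis (bp), for protein-coding genes of 4500 to 5500 bp (left) and miRNA genes (right). Triangles under the curves mark the nearest region of each HD-ZIP III gene (left) and each of the 4 microRNA genes (right), with those at 0 bp lying on top of each other, and the dotted line is 3000 bp. At the dotted line the curves stand at 94.6% (BLJ) and 92.1% (JKD) on the left and at 68.1% and 63.5% on the right.

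Taking all 9 genes, BLJ regions lay within 3000 bp of 6 and JKD regions within 3000 bp of 7, and the 6 were among the 7. A region of both factors overlapped 3 genes, PHV, REV and ATHB8. Of the 16 BLJ regions, 8 shared at least 1 bp with a JKD region, where 68.7% of the whole BLJ list did. For the 15 JKD regions the count was 10, where 77.1% of the list did. The shared regions lay at PHV, REV, ATHB8 and MIR165A. At PHB and MIR166A both factors had regions, but none of them shared a base.

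Region densities at the 9 genes were spread over most of each list. The BLJ regions had percentiles from 11.4 to 96.1 with a median of 51.7, and the JKD regions from 0.509 to 88.8 with a median of 46.7. The only regions in the densest 10% were the 2 BLJ regions beside REV and MIR165A described above. The 2 replicates often ranked a region differently. The gap between the percentiles of both values had a median of 23.6 points over the 16 BLJ regions and 22.0 over the 15 JKD regions, close to the 24.2 and 20.1 points of the whole lists. It was over 50 points in 5 BLJ and 3 JKD regions, where 17.4% and 12.2% of the lists had such a gap. A difference between regions of about 20 points or less is no larger than the usual gap between replicates. That gap is between single values, while regions are ranked here by the mean of both. It is therefore a rough yardstick and not the spread of these ranks. Both values were above percentile 75 in 2 BLJ regions, those beside REV and MIR165A, where 8.86% of the list had both above it. The same held for 2 JKD regions, those beside MIR165A and PHV, where 12.1% of the list did.

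**Figure D4:**
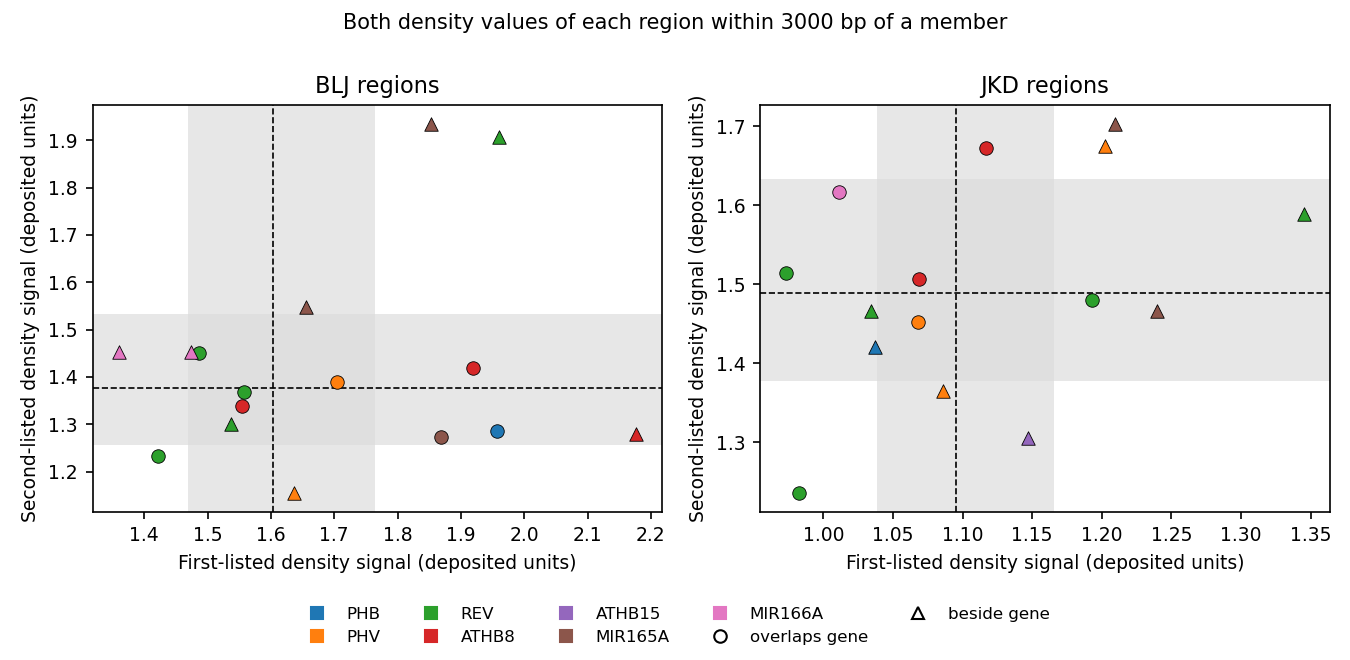
Second-listed against first-listed density signal, in the deposited units, of the 16 BLJ regions (left) and 15 JKD regions (right) within 3000 bp of the 9 genes, coloured by gene, with circles for regions that overlap the gene and triangles for those beside it. Dashed lines are the medians of the whole lists and grey bands their middle 50%. In the BLJ panel the regions beside REV and MIR165A stand alone at the upper right.

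At an IDR at or below 0.05 were 0 of 16 BLJ regions, against 8.21% of the list, and 3 of 15 JKD regions, against 17.7%. At or below 0.1 were 4 of 16 BLJ regions, against 25.3%, and 5 of 15 JKD regions, against 35.8%. A low IDR did not always go with like percentiles of both listed values. The BLJ region beyond MIR166A had an IDR of 0.0944 with percentiles of 8.02 and 63.7, while the JKD region in REV at 2.04 and 2.30 had an IDR of 0.257. By gene, at an IDR at or below 0.05, 0 of the 9 genes had a BLJ region and 3 had a JKD region (PHV, REV and MIR165A), each beside the gene. At that limit 17.7% of protein-coding and 11.3% of miRNA genes had a BLJ region, and 32.9% and 16.9% a JKD region. At or below 0.1, PHV, MIR165A and MIR166A had a BLJ region and PHB, PHV, REV and MIR165A a JKD region. ATHB8 and ATHB15 had no region of either factor at this limit. At 0.1, 46.4% of protein-coding and 29.8% of miRNA genes had a BLJ region, and 56.2% and 35.9% a JKD region. The protein-coding shares at both limits are over genes of all lengths, and those of the length class are not given here.

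Ordered by the percentile of the densest BLJ region within 3000 bp, REV (96.1) and MIR165A (95.2) were followed by ATHB8 (81.4), PHB (69.2), PHV (59.8) and MIR166A (42.4). For JKD the order was REV (88.8), MIR165A (86.0), PHV (83.8), ATHB8 (74.6), MIR166A (50.3), ATHB15 (29.4) and PHB (25.8). Steps between neighbours in both orders were smaller than the median gap between replicates over the same regions (23.6 points for BLJ and 22.0 for JKD), except for the JKD step from ATHB8 to MIR166A. The next JKD step, from MIR166A to ATHB15, was close to that gap. As above, the gap is between single values and both orders use the mean of 2 values, so the comparison is rough. Over all protein-coding genes near a region the median of this measure was 76.4 for BLJ and 75.1 for JKD, and over miRNA genes 71.4 and 66.6. In the length class of the HD-ZIP III genes it was 78.9 for BLJ and 76.6 for JKD. The gene of most similar density pattern was sought for each HD-ZIP III gene with regions of both factors, as the smallest Euclidean distance over 4 percentiles, 2 values for each of 2 factors. It was AT1G23850 for REV (3.66 percentile points), AT5G08630 for ATHB8 (5.50), AT3G03620 for PHB (6.27) and SLO1 (AT2G22410) for PHV (6.67). Within 10 points lay 68 genes for REV, 24 each for ATHB8 and PHV and 7 for PHB, of 23111 to 23113 compared.

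The other genes of this pathway were taken from a list of 22. Of these, 17 act on HD-ZIP III proteins, on leaf polarity, on xylem or on the making and loading of miRNAs, and 5 are further MIR166 genes. Among the 17, 14 had a BLJ region within 3000 bp, 14 a JKD region and 13 both, against the 89.9%, 87.6% and 84.2% of protein-coding genes. ZPR4, counted among the 17, is entered in the gene table as a non-coding RNA gene and is not part of that background. All 4 genes of miRNA processing and export had regions of both factors: DCL1, the dicer that cuts the hairpins, its partners HYL1 and SE, and HST, an exportin. HST had the highest mean percentile over both factors among these 22 genes, 91.8, with 91.6 for BLJ and 92.0 for JKD. AGO1 was higher for BLJ and DCL1 for JKD. The BLJ value of HST came from a region 1108 bp beside the gene that overlapped AT3G05035. Its first-listed value was at percentile 98.4 and its second-listed value at 45.8, so its high rank rests on 1 of 2 replicates. The JKD value of HST came from a region 441 bp beside the gene that overlapped AT3G05050. AGO1, the argonaute that cleaves the target transcripts, had regions of both factors, with a BLJ percentile of 96.1 and a JKD percentile of 69.3. Both came from regions over the low-coordinate end of AGO1 that also overlapped AT1G48405. The listed values were at percentiles of 93.4 and 93.3 for that BLJ region, and 34.4 and 82.5 for that JKD region. AGO10, which takes up miR165 and miR166 and keeps them from AGO1, had no region of either factor in its window, the nearest being 5522 bp (BLJ) and 6736 bp (JKD) away.

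Little zipper (ZPR) proteins bind HD-ZIP III proteins and block them. Regions of both factors lay near ZPR1, ZPR2 and ZPR4, and ZPR1 had percentiles of 85.0 for BLJ and 83.3 for JKD. The BLJ value of ZPR1 came from a region 990 bp beside the gene. A BLJ region of 2911 bp that overlapped ZPR1 and DHDPS2 had nearly the same percentile, 84.9. The JKD value of ZPR1 came from a region of 7003 bp that also overlapped AHL22 and DHDPS2. ZPR3 had a JKD region alone, 2302 bp away at percentile 53.1, and its nearest BLJ region lay 3135 bp away. KANADI (KAN) factors oppose HD-ZIP III genes on the lower side of the leaf. KAN1 and KAN4 were near both factors. KAN4 had its densest BLJ region (densities 1.81 and 1.72, IDR 0.175) inside the gene. Its JKD percentile of 74.2 came from a region 1511 bp beside the gene that overlapped AT5G42620. That JKD region had its first-listed value at percentile 25.9 and its second-listed value at 88.4, so its rank rests on 1 of 2 replicates. The JKD region inside KAN4 was at percentile 10.8. KAN3 had BLJ regions alone, the denser at percentile 33.7, and KAN2 had neither. AS1 and AS2, which act together in leaf polarity, and ACL5, an enzyme of thermospermine synthesis in xylem, were near both. Their highest percentiles for BLJ and JKD were 63.9 and 4.33 at AS1, 67.4 and 64.5 at AS2, and 27.4 and 27.3 at ACL5. The JKD region of AS1 lay 1657 bp away and the BLJ region of AS2 2713 bp away.

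No hairpin of MIR166C to MIR166G was overlapped by a region, as was the case for 73.6% of all miRNA genes. MIR166G had regions of both factors, 2016 bp (BLJ) and 2179 bp (JKD) away, at percentiles of 69.7 and 46.0. MIR166D and MIR166F had a BLJ region alone, at percentiles of 3.03 and 77.0. MIR166E had JKD regions alone. The denser, at percentile 86.0 with an IDR of 0.0347, lay 2984 bp away, just inside the limit, and overlapped MED10A (AT5G41910). MIR166C had no region of either factor. With the 4 genes above, 5 of 9 MIR165 and MIR166 genes lay near a BLJ region and 4 of 9 near a JKD region, where the shares of all miRNA genes were 68.1% and 63.5%.

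**Figure D5:**
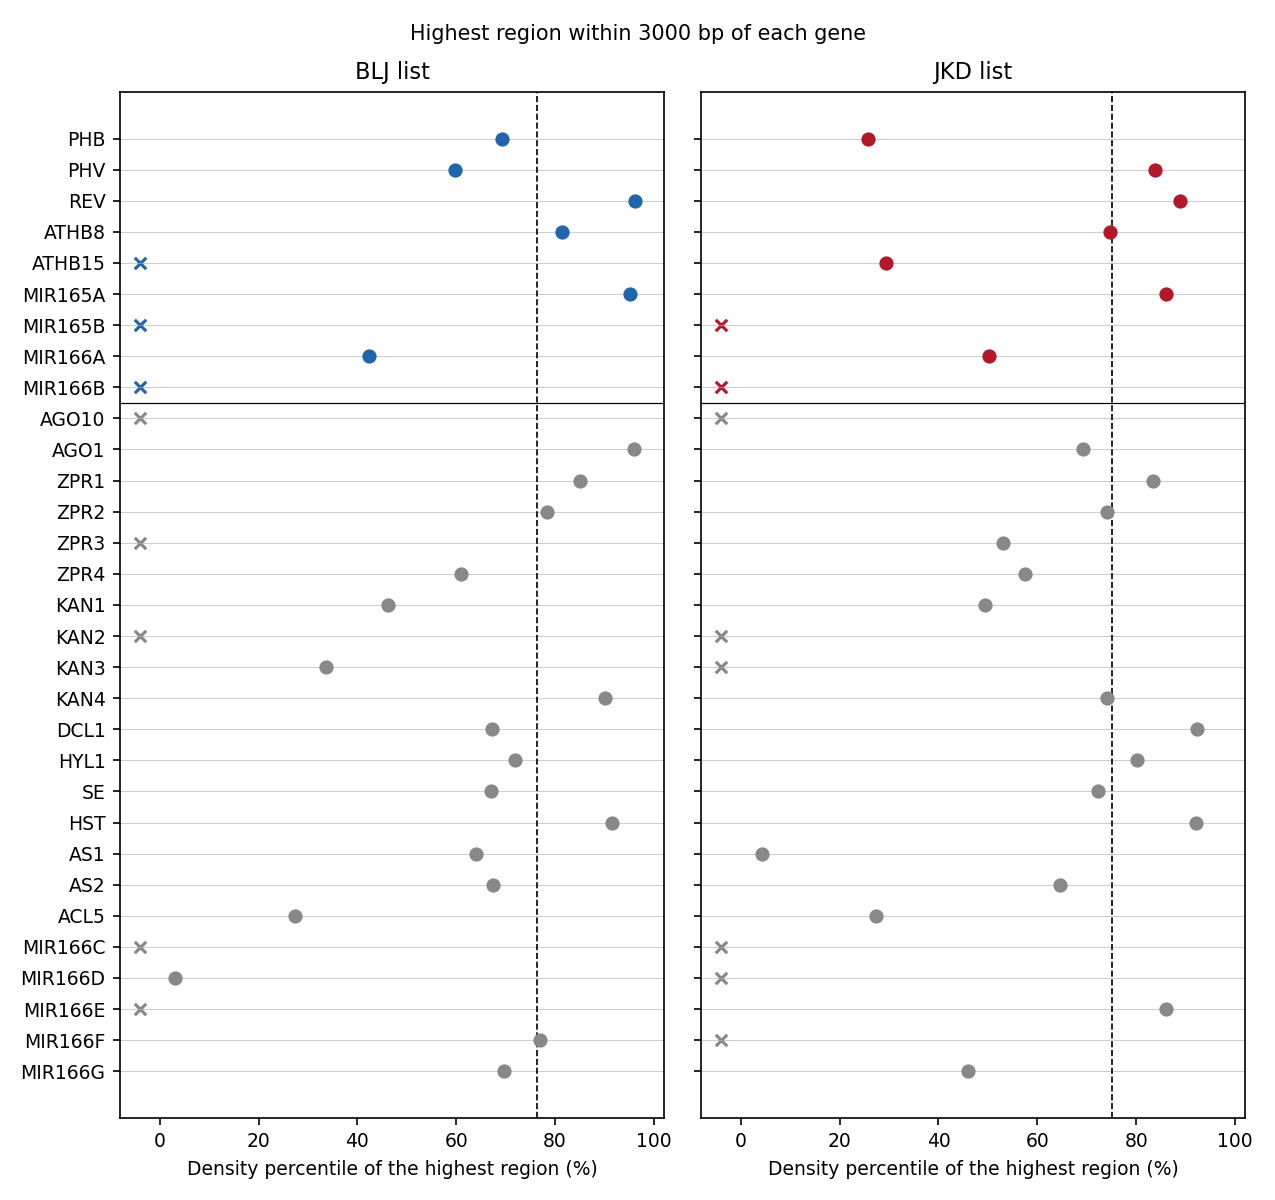
Density percentile (%) of the highest BLJ region (left) and JKD region (right) within 3000 bp of each of the 9 genes (coloured, above the line) and of the 22 other genes of the pathway (grey). Crosses mark genes with no region, and the dashed lines are the medians over protein-coding genes near a region, 76.4 for BLJ and 75.1 for JKD. REV, MIR165A and HST stand right of both lines, together with ZPR1.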

How the data were processed

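Root chromatin was immunoprecipitated with an antibody against GFP, and the DNA was amplified, tagged by transposon insertion and sequenced, per the labels' protocols. CASAVA, Bowtie and the build TAIR9 are named in the submitters' processing notes. How regions were called, how density was scaled and what the control was used for is not given in the sources used here. The authors deposited 1 region list per factor with 2 density signal values and an IDR, which like a q-value runs from 0 to 1. Per the run sheets, replicates 1 and the control shared a flow cell (lane 5), and replicates 2 another (lane 2). Region coordinates are those of TAIR9, 1-based, and gene ends came from an NCBI gene table of TAIR10.1, whose nuclear chromosomes are taken to be the same. All 9 genes and all 22 others were found in it. Distances, cover and percentiles were computed in Python 3.11.15 with pandas 2.3.3 and numpy 2.4.6, and the interval code was tested on simulated data. The planned motif and microRNA sequences were not analysed here. The genes, lists and naming rules were chosen with earlier results of these data known. All 9 genes are named, with pathway genes near 1 factor only and the 4 of highest mean percentile, and others are named by their counts. Alternatives changed the window, the IDR limit, the density limit and the value used.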

Additional observations from a re-analysis of the deposited data

How the results depend on the processing

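No paired analysis was possible because the regions were called on both replicates together and the listed values carry no replicate number; for the same reason no replicate could be left out of a call. Placing the midpoint of the region within 3000 bp, or keeping the denser 50% of each list, left all 3 counts of genes within 1.5 times of 6 (BLJ), 7 (JKD) and 6 (both). Within 1000 bp, and likewise for overlap with the gene, the counts were 5 for BLJ, 4 for JKD and 3 for both. An IDR limit of 0.05 left 0, 3 and 0, and a limit of 0.1 left 3, 4 and 2, with fewer regions in use. The median percentile of the highest JKD region was 74.6, and it was 69.5 from the first-listed value, 58.0 within 1000 bp and 61.4 among regions of similar length. For BLJ it was 75.3, and 87.5 and 61.1 from the first-listed and second-listed value alone. The BLJ median was 60.6 within 1000 bp and 75.2 among regions of similar length. Median cover over the 9 genes was 23.1% for BLJ and 12.3% for JKD. With a flank of 1000 bp it was 16.0% and 0%, and for the gene alone 22.5% and 0%. With flanks of 3000 bp the medians were 32.4% and 24.0% for the length class and 15.6% and 10.2% for miRNA genes. The causes of these shifts were not tested. Depth is unknown, so a gene without a region is one without a detected region.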

Other observations

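ATHB15 lay in a long stretch of chromosome 1 that had no BLJ region in the list analysed here. This was seen after the values and is given as a description. The stretch ran over 88043 bp (19332797 to 19420839) and held 14 protein-coding genes in full, among them the myrosinase-binding protein genes MBP1 and MBP2. Of 24222 stretches between neighbouring BLJ regions, 64 were at least as long and 10 held at least as many protein-coding genes, while the median stretch was 1492 bp. The JKD list had 5 regions inside it and a shorter gap of 42162 bp around ATHB15 (19373883 to 19416044) with 6 protein-coding genes, and 167 of its 21978 stretches were at least as long.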
